A study of Mus musculus with 28 samples.

Results

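The hippocampus of 5xFAD mice was compared with that of wild-type (WT) mice by RNA sequencing, using the 3 libraries labelled 5xFAD and the 3 labelled WT of the cohort bred with the Ripk1 D138N allele. These 6 libraries are part of 12 in that cohort, of 24 hippocampal RNA libraries and of 28 samples in the series. All mice were 9 months old, were kept free of specific pathogens and had completed behaviour tests before the tissue was taken, and the libraries were made from polyadenylated RNA. The study asked how ZBP1, a sensor of unusual nucleic acids, and the kinase RIPK1 take part in the inflammation of this model, and each mutant line had WT mice of its own ancestry. None of the 6 libraries compared here carries a Ripk1 or Zbp1 mutation by label. Whether each library of a group stands for its own mouse is not stated, and the error behind every p-value here is the variation among libraries, which may be technical.

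5xFAD mice carry human transgenes with familial Alzheimer's disease mutations, mutant APP among them, driven by the neuronal Thy1 promoter, and deposit amyloid plaques in the hippocampal formation and cortex. Around plaques, microglia, the resident macrophages of the brain, bind lipids and amyloid through TREM2, whose adaptor TYROBP passes the signal to the kinase SYK, and they raise genes of phagocytosis and lysosomal breakdown. Type I interferons act through a complex that holds STAT2 and IRF9, which binds the interferon-stimulated response element and switches on antiviral genes, while astrocytes around plaques become reactive and raise intermediate filament proteins such as GFAP.

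The total counts were 38318301, 41945752 and 36811256 in WT replicates 1 to 3 and 16624325, 27067378 and 31241441 in 5xFAD replicates 1 to 3, so every 5xFAD library was shallower than every WT library. Pearson correlations of log2 levels across genes were 0.972 to 0.9855 within a group and 0.9602 to 0.974 between groups. Levels are given as CPM, counts relative to the library's total, scaled by the trimmed mean of M-values (TMM), in the order of replicates 1, 2 and 3. Changes are log2 fold changes of 5xFAD over WT with their standard errors (SE), from edgeR's quasi-likelihood test, with p-values adjusted by Benjamini and Hochberg over all 21376 genes tested, and a gene is said to rise or fall where the adjusted p was under 0.05. Thy1, the gene whose promoter drives the transgenes, was at 542, 558 and 608 CPM in the WT libraries and at 2737, 2293 and 2387 CPM in the 5xFAD libraries (log2 fold change 2.12 ± 0.12, adjusted p = 1.33e-07). No 5xFAD library overlapped WT for Thy1. Mouse App did not pass the test (-0.11 ± 0.07).

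In 5xFAD, 1734 genes rose, 8.11% of those tested, and 1715 fell, 8.02%. The rises were larger than the falls. Of the genes that rose, 709 changed at least 2-fold and 47 at least 16-fold, while of the genes that fell 106 changed at least 2-fold and 2 at least 16-fold. The median log2 fold change was 0.78 over the genes that rose, -0.42 over those that fell and 0.018 over all genes tested. In 1710 of the genes that rose and 1697 of those that fell the 3 libraries of one group did not overlap the 3 of the other, beside 3783 (17.7%) and 3653 (17.1%) of all genes tested. A lack of overlap given below for a called gene thus adds little to its call. Calls depended on the libraries: 895 rises and 589 falls were called in all 6 fits that left out 1 library. Without 5xFAD replicate 2 there were 1055 rises and 702 falls, without WT replicate 1 there were 1088 and 735, and without WT replicate 2 there were 1272 and 1066. The falls of at least 2-fold numbered 50, 52 and 61 without those libraries and 178 without 5xFAD replicate 3. With library size alone in place of TMM, under which the median over all genes was 0.085, a shift of 0.067, 2374 genes rose and 1217 fell.

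**Figure D1:**
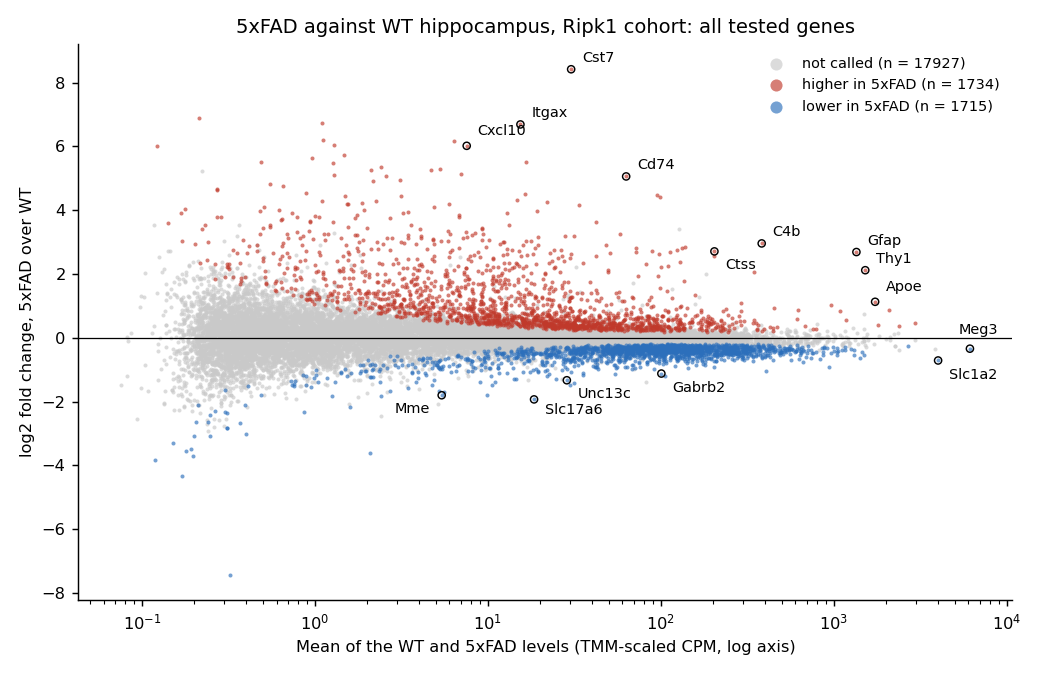
Each point is 1 of the 21376 genes tested, with its mean level in TMM-scaled CPM on a log axis and its log2 fold change of 5xFAD over WT, red where it rose, blue where it fell and grey where it was not called. Rises spread up to a log2 fold change of 8.42 (Cst7), while most falls lie close to 0 among genes of high level.

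The 2 directions sat at different levels of expression, as the plot of level and change shows. Among the 2460 genes above 100 CPM, 7.2% rose and 31.3% fell, whereas among genes of 1 to 10 CPM 9.7% rose and 2.1% fell. The genes that rose together held 6.13, 6.29 and 6.45% of all counts in the WT libraries and 10.6, 11.2 and 10.2% in the 5xFAD libraries. The genes that fell held 28.6, 28.4 and 27.3% in WT and 21.5, 21.2 and 23.3% in 5xFAD.

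Genes that mark microglia rose together. All 18 identity markers tested rose, with a median log2 fold change of 1.45, and they were called in each fit without 1 library. The purinergic receptor gene P2ry12, a marker of surveying microglia, was at 51.4, 28.7 and 46.6 CPM in the WT libraries and at 63.7, 70.3 and 72.2 CPM in the 5xFAD libraries (log2 fold change 0.71 ± 0.16, adjusted p = 0.0106). Ptprc, the leukocyte surface phosphatase CD45, was at 6.32, 3.92 and 4.93 CPM in the WT libraries and at 30.1, 30.9 and 32.8 CPM in the 5xFAD libraries (log2 fold change 2.63 ± 0.16, adjusted p = 1.68e-07). The 3 5xFAD libraries lay above the 3 WT libraries for both genes, narrowly for P2ry12 and widely for Ptprc. Whole tissue does not separate more cells of a type from more RNA per cell, here or for any gene below. Markers of blood-derived and border myeloid cells did not move as a group: 1 of 10 tested, Ly6c2, rose (called neither without 5xFAD replicate 2 nor without WT replicate 1), the median was -0.18, and 4 more listed markers were too low to test. Ccr2, the monocyte receptor, was at 0.482, 0.506 and 0.22 CPM in WT and 0.294, 0.426 and 0 CPM in 5xFAD.

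Transcription factor genes of microglia rose in part. Spi1, which encodes PU.1, was at 3.16, 3.01 and 4.13 CPM in the WT libraries and at 11.1, 12.7 and 12.7 CPM in the 5xFAD libraries (log2 fold change 1.83 ± 0.20, adjusted p = 4.51e-05), and Irf8, its partner, rose by 2.34 ± 0.13. The 5xFAD libraries were close to one another for both and stood clear of WT. Of 17 myeloid factors tested 9 rose and none fell, Mitf and Maf being among those not called (0.15 ± 0.26 and 0.27 ± 0.11). One of the 9, Egr2, was at 1.77, 1.06 and 1.27 CPM in WT and 87.8, 3.91 and 2.83 CPM in 5xFAD, with replicate 1 far above the others.

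Along the TREM2 pathway, 17 of 19 genes rose, from receptor to adaptor proteins, with a median of 1.34. Trem2 itself was at 11.5, 8.86 and 12.8 CPM in the WT libraries and at 91.8, 112 and 113 CPM in the 5xFAD libraries (log2 fold change 3.26 ± 0.17, adjusted p = 9.14e-08). Its adaptor Tyrobp was at 5.28, 4.74 and 6.47 CPM in the WT libraries and at 39.7, 55.6 and 56.0 CPM in the 5xFAD libraries (log2 fold change 3.20 ± 0.20, adjusted p = 3.23e-07). Both were highest in 5xFAD replicates 2 and 3 and lowest in WT replicate 2, with no overlap of the groups. The kinase Syk, which the adaptor recruits, changed less (log2 fold change 0.84 ± 0.22, adjusted p = 0.0202) and was called in 4 of the 6 fits without 1 library. Among the kinases and adaptors below it, Vav1 rose by 1.93 ± 0.17, Btk by 1.80 ± 0.32, Plcg2 by 1.01 ± 0.17 and Inpp5d, which encodes the opposing lipid phosphatase SHIP1, by 1.4 ± 0.12. The Src-family kinase gene Fgr rose most, from 0.134, 0.217 and 0.11 CPM to 2.89, 2.88 and 3.05 CPM (log2 fold change 4.21 ± 0.64, adjusted p = 0.000756). Malt1 and Prkcd did not pass the test.

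Of 20 genes for surface and secreted proteins of plaque microglia 17 rose, with a median of 1.67. Outside this list Cst7, the gene of the cysteine protease inhibitor cystatin F, had the largest log2 fold change of all genes tested: it was at 0.214, 0.241 and 0.0551 CPM in the WT libraries and at 46.6, 63.8 and 71.0 CPM in the 5xFAD libraries (342-fold, log2 fold change 8.42 ± 0.28). Gpnmb, a lysosomal glycoprotein gene, was at 6.08, 6.31 and 8.26 CPM in the WT libraries and at 46.8, 47.3 and 44.5 CPM in the 5xFAD libraries (log2 fold change 2.75 ± 0.14, adjusted p = 6.65e-08). The growth factor gene Igf1 was at 10.4, 9.29 and 8.01 CPM in the WT libraries and at 15.3, 22.6 and 27.1 CPM in the 5xFAD libraries (log2 fold change 1.24 ± 0.18, adjusted p = 0.000473). For Cst7 and Igf1 the order within 5xFAD was the same, lowest in replicate 1 and highest in replicate 3, while Gpnmb was level across the 3. The lipid carrier Apoe, already abundant in astrocytes, rose from 1072, 1075 and 1111 CPM to 2076, 2673 and 2399.6 CPM (log2 fold change 1.13 ± 0.13). Ank, Cspg4 and Timp2 were not called.

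Receptors for antibodies and for microbial ligands rose across their families. Of 6 Fc receptor genes 5 rose, all but Fcgrt, the neonatal receptor gene (0.43 ± 0.16, not called). Fcgr2b, the inhibitory Fc gamma receptor gene, was at 4.88, 3.47 and 3.22 CPM in the WT libraries and at 29.9, 30.8 and 33.7 CPM in the 5xFAD libraries (log2 fold change 3.03 ± 0.18, adjusted p = 1.36e-07). Fcgr3, an activating receptor gene, rose by 2.20 ± 0.16, and Fcgr4, close to the detection limit in WT at 0.0536, 0.0241 and 0 CPM, was at 2.65, 1.70 and 2.27 CPM in 5xFAD. The inhibitory and the activating genes thus both rose, and their groups did not overlap. Of 18 Toll-like receptor genes and partners 16 rose with a median of 1.66. Cd180, a homologue that works with Ly86, was at 4.47, 2.87 and 3.33 CPM in the WT libraries and at 34.0, 25.5 and 29.1 CPM in the 5xFAD libraries (log2 fold change 3.05 ± 0.21, adjusted p = 5.08e-07). Tlr2, the receptor for bacterial lipoproteins, rose by 2.81 ± 0.19 and the endosomal receptor gene Tlr7 by 1.72 ± 0.24. Tlr4, the lipopolysaccharide receptor gene, was not called (0.27 ± 0.34) although its co-receptors Cd14 and Ly96 rose by 2.56 ± 0.18 and 1.02 ± 0.32. Tlr3 was called (log2 fold change 0.50 ± 0.15, adjusted p = 0.0362), but in 1 of the 6 fits without 1 library.

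**Figure D2:**
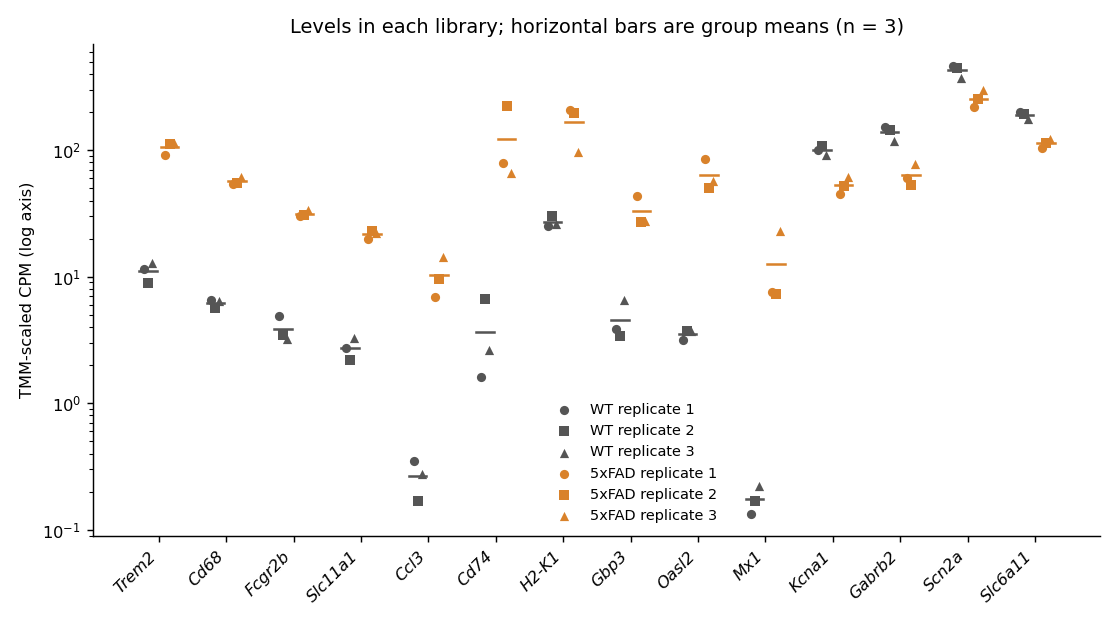
Each marker is the level of 1 gene in 1 library, in TMM-scaled CPM on a log axis, grey for WT and orange for 5xFAD, with a marker shape for each replicate number and a bar at the mean of the 3 libraries. All 14 were chosen from genes called, among which 1710 of 1734 rises and 1697 of 1715 falls do not overlap. The groups do not overlap for any of the 14, and the 5xFAD libraries spread most for Cd74, H2-K1 and Mx1.

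In the lysosome the proteases rose and most of the membrane and pump did not. Of 14 genes of cathepsins and of the inhibitor cystatin C 12 rose, with a median of 1.16. Ctsb, a cysteine cathepsin gene, was at 426, 461 and 432 CPM in the WT libraries and at 767, 827 and 798 CPM in the 5xFAD libraries (log2 fold change 0.86 ± 0.07, adjusted p = 2.14e-06). Ctsz rose by 2.32 ± 0.13 and Ctsd, the main aspartic protease gene of the lysosome, by 2.06 ± 0.14. All 3 5xFAD libraries exceeded all WT libraries for Ctsb, within a narrow range in each group. Ctse, an endosomal aspartic protease gene, went from 0.0536, 0.144 and 0.11 CPM to 2.18, 2.24 and 1.90 CPM. Among 17 membrane proteins, pump subunits and regulators 4 rose, 1, Lamp5, fell (called in the full fit and without 5xFAD replicate 3 only) and the median was 0.07. Lamp1 was at 229, 227 and 219.5 CPM in the WT libraries and at 315, 328 and 309 CPM in the 5xFAD libraries (log2 fold change 0.49 ± 0.07, adjusted p = 0.00034), whereas the proton pump genes Atp6v1a, Atp6v1b2 and Atp6v0a1 had log2 fold changes of -0.23 ± 0.09, -0.14 ± 0.07 and -0.11 ± 0.07 and were not called. The one pump subunit gene to rise was Atp6v0d2, which macrophages and osteoclasts use, listed at 0, 0.0481 and 0 CPM in WT and 0.825, 2.45 and 3.30 CPM in 5xFAD. Tfeb, the master regulator gene of lysosomes, rose by 0.69 ± 0.18.

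Uptake genes were mixed. Cd68, a lysosomal marker of phagocytes, was at 6.57, 5.66 and 6.47 CPM in the WT libraries and at 53.5, 55.2 and 61.0 CPM in the 5xFAD libraries (log2 fold change 3.18 ± 0.16, adjusted p = 6.24e-08). Ch25h, which makes 25-hydroxycholesterol, rose by 3.76 ± 0.40 and the lipid droplet gene Plin2 by 1.15 ± 0.14. The engulfment receptor gene Mertk and its ligand gene Gas6 were not called (0.04 ± 0.12 and 0.27 ± 0.19), nor were the cholesterol exporter genes Abca1 and Abcg1 (0.08 ± 0.14 and -0.18 ± 0.06). In all 9 of 17 rose with a median of 0.47. Among genes of iron and oxidative metabolism 14 of 22 rose and 1, Sod2, fell, a call lost whichever library was left out. Slc11a1, the phagosomal metal transporter gene NRAMP1, was at 2.73, 2.19 and 3.30 CPM in the WT libraries and at 19.9, 22.9 and 22.3 CPM in the 5xFAD libraries (log2 fold change 2.99 ± 0.16, adjusted p = 1e-07). The iron storage gene Ftl1 was at 32.3, 34.1 and 34.0 CPM in the WT libraries and at 72.9, 74.1 and 63.4 CPM in the 5xFAD libraries (log2 fold change 1.07 ± 0.11, adjusted p = 2.2e-05), and Fth1 rose by 0.86 ± 0.14. The groups did not overlap for these iron genes. Genes of the phagocyte NADPH oxidase rose together, Cybb by 2.68 ± 0.32, Cyba by 2.35 ± 0.22, Ncf1 by 1.75 ± 0.22 and Ncf4 by 2.10 ± 0.37, while the transferrin receptor Tfrc stayed at a log2 fold change of 0.00 ± 0.08 (not called).

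Complement and chemokine genes rose in part. Of 18 complement genes 11 rose, and these covered the classical start (C1qa, C1qb, C1qc and C4b), the central component C3 (2.27 ± 0.47) and the receptors C3ar1 (2.61 ± 0.20), C5ar1 (1.79 ± 0.34) and Itgb2 (2.30 ± 0.15). C2 and Cfb, the convertase proteases, were not called (0.14 ± 0.42 and -0.68 ± 0.71). Of 17 chemokine genes tested 12 rose with a median of 3.41. Ccl3 was at 0.348, 0.169 and 0.275 CPM in the WT libraries and at 6.89, 9.62 and 14.4 CPM in the 5xFAD libraries (log2 fold change 5.29 ± 0.38, adjusted p = 8.42e-07). Ccl4, the neighbouring chemokine gene, was at 0.375, 0.12 and 0.165 CPM in WT and 3.53, 3.44 and 3.83 CPM in 5xFAD. Ccl3 rose in all 3 5xFAD libraries, most in replicate 3, and Ccl4 was level across them. Homeostatic ligands were not called: Cx3cl1, the neuronal ligand of CX3CR1, had -0.13 ± 0.09, Cxcl12 had -0.20 ± 0.11 and Cxcl14 had 0.10 ± 0.08. Of 9 chemokine receptor genes tested 3 rose, with a median of 1.17.

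Antigen presentation genes rose, and the 5xFAD libraries differed from each other. Of 20 MHC class I genes, which cover the chains, peptide transport and immunoproteasome, 19 rose with a median of 2.32. H2-K1, a classical heavy chain gene, was at 25.1, 30.3 and 26.1 CPM in the WT libraries and at 209, 198 and 96.1 CPM in the 5xFAD libraries (log2 fold change 2.63 ± 0.27, adjusted p = 2.18e-05). The transactivator gene Nlrc5 rose by 3.08 ± 0.22, the peptide transporter gene Tap1 by 2.25 ± 0.22 and the immunoproteasome gene Psmb8 by 2.74 ± 0.23. Replicate 3 was the lowest 5xFAD library for H2-K1, and summed over the list the libraries stood at 240.4, 282 and 256 CPM in WT and 1289, 1288 and 827 CPM in 5xFAD. H2 genes are close copies of one another, and how the authors assigned shared reads is not given in the sources used here. For MHC class II 8 of 12 rose. Cd74, the invariant chain gene, was at 1.61, 6.64 and 2.62 CPM in the WT libraries and at 78.5, 223 and 65.4 CPM in the 5xFAD libraries (log2 fold change 5.06 ± 0.70, adjusted p = 0.000384). Replicate 2 was the highest library of its group for Cd74 in both genotypes. Ciita, the class II transactivator gene, fell by this test (log2 fold change -0.86 ± 0.27, adjusted p = 0.0413) but was called in none of the 6 fits without 1 library.

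Most interferon-induced genes tested rose. All 28 antiviral effectors tested rose, with a median of 2.40, and all were called in each fit without 1 library. Oasl2, a relative of the RNA-sensing oligoadenylate synthetases, was at 3.16, 3.73 and 3.75 CPM in the WT libraries and at 84.6, 49.9 and 57.3 CPM in the 5xFAD libraries (log2 fold change 4.17 ± 0.30, adjusted p = 8.26e-07). Bst2, the tether that retains virus particles, rose by 2.91 ± 0.29, and Trim30a, an inhibitor of TLR signalling, by 2.74 ± 0.23. Every 5xFAD library was above every WT library for Oasl2, with replicate 1 the highest. Of 18 guanylate-binding and related GTPases 15 rose with a median of 2.72, Gbp3 from 3.89, 3.37 and 6.50 CPM to 43.7, 27.2 and 27.3 CPM (log2 fold change 2.83 ± 0.26, adjusted p = 7.16e-06) and Igtp by 2.86 ± 0.25. Gbp8, Gbp10 and Tgtp1 were not called (1.47 ± 0.53, 2.90 ± 0.95 and 1.79 ± 0.68). Mx1, a GTPase that blocks viral replication, was at 0.134, 0.169 and 0.22 CPM in the WT libraries and at 7.54, 7.24 and 23 CPM in the 5xFAD libraries (log2 fold change 6.16 ± 0.60, adjusted p = 1.45e-05). Mx1 was well above the other 5xFAD libraries in replicate 3. Of the 6 Ifit genes 4 rose, Ifit1bl1 and Ifit1bl2 being the exceptions (0.11 ± 0.26 and 0.52 ± 0.40, not called).

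The factors that drive these genes rose unevenly. Irf7, the amplifier of type I interferon, rose by 3.92 ± 0.27, Irf9 by 1.67 ± 0.14 and Stat2 by 1.16 ± 0.10, while Irf3 and Irf2 were not called (0.30 ± 0.11 and 0.25 ± 0.09). The feedback inhibitor gene Usp18 rose by 3.14 ± 0.32. Cytosolic sensors followed, 10 of 13 higher: Dhx58 by 3.12 ± 0.27, Ddx58, the gene of RIG-I, by 1.80 ± 0.19, Ifih1, the gene of MDA5, by 1.66 ± 0.21 and Zbp1 by 4.94 ± 0.41, against Cgas at 0.65 ± 0.27 (not called) and Adar, the RNA editing enzyme that limits ZBP1 and MDA5 ligands, which fell (log2 fold change -0.34 ± 0.10, adjusted p = 0.0386) but was not called without 5xFAD replicate 1, 5xFAD replicate 2, WT replicate 1 or WT replicate 3. Receptors moved little. Ifnar1 was not called (-0.09 ± 0.09), Ifnar2 was at 14.3, 11.8 and 10.7 CPM in the WT libraries and at 19.9, 19.5 and 16.9 CPM in the 5xFAD libraries (log2 fold change 0.61 ± 0.13, adjusted p = 0.00654) and Ifngr1 rose by 0.58 ± 0.11. The interferon genes Ifnb1, Ifng and Ifnk had too few counts to be tested.

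Promoters of the genes that rose held the interferon element more often than other promoters. The search took RefSeq promoters of build GRCm38.p6 (250 bases before to 50 bases after the start) and the letters GAAANNGAAA on both strands, and promoters were matched for 1294 genes that rose and 1260 that fell. Each gene was counted once, as a match where any of its promoter entries held the letters. A share or count of promoters below is thus one of genes. The element was present in 8.6% of the promoters of genes that rose, 3.0% of those of genes that fell, 3.3% of those not called and 4.0% of those of all 27025 genes with a promoter. It was present in 14.2% of the promoters of genes that rose at least 2-fold and in 11 of 35 (31.4%) that rose at least 16-fold. In 11 lists searched it was found in 9 of 10 promoters of the guanylate GTPases, 5 of 6 of the Ifit family, 8 of 21 of the antiviral effectors and 5 of 17 of MHC class I. Of the other lists it was in 2 of 10 promoters of cathepsins, 5 of 39 of ribosomal proteins, 1 of 12 of microglial identity, 1 of 13 of the lysosomal membrane and proton pump and 0 of 14 of the TREM2 pathway. It was also in 3 of 17 promoters of potassium channels, of which 20 of 24 genes fell, and 3 of 17 of immediate early genes. The letters GAGGAAGT, a site of the PU.1 type, searched on both strands, were in 6.6% of promoters of genes that rose, 3.2% of those that fell, 3.1% of those not called and 3.7% of all promoters, and in 11.4% of those of genes at least 2-fold higher. The other 3 motifs searched differed less between genes that rose and genes not called. The interferon-gamma type element TTCNNNGAA was in 9.0% and 8.2% of their promoters, the lysosomal gene element TCACGTGA in 1.8% and 1.8% and the cyclic AMP element TGACGTCA in 2.7% and 3.1%, against 9.6%, 1.1% and 2.0% of all promoters. Among genes at least 2-fold higher the shares of these 3 motifs were 11.6%, 1.2% and 1.4%. In single lists the shares ran more widely. TTCNNNGAA was in 6 of 10 promoters of guanylate GTPases, 3 of 21 of antiviral effectors and 0 of 14 of the TREM2 pathway. TCACGTGA was in 4 of 13 of the lysosomal membrane and pump, 2 of 10 of cathepsins and 0 of 14 of the TREM2 pathway. TGACGTCA was in 4 of 39 of ribosomal proteins and 0 of 17 of potassium channels. All 5 were searched on both strands and independently, so that a promoter can hold several, and the counts describe letters in a window and not binding.

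The following stretches show the matches in 6 interferon genes and 1 Fc receptor gene whose rises are given here, each read 5′ to 3′ on the strand of the gene from GRCm38.p6 with the matching bases in capitals. Ifit1 lies on the plus strand at chr19:34640765-34640833 with 2 matches, Isg15 on the minus strand at chr4:156200855-156200916 with 3 that overlap, Cxcl10 on the minus strand at chr5:92349073-92349122 with 1, Rsad2 on the minus strand at chr12:26456543-26456592 with 1, Bst2 on the minus strand at chr8:71537567-71537622 with 2 that overlap, Gbp3 on the plus strand at chr3:142559979-142560034 with 2 that overlap, and Fcgr4 on the plus strand at chr1:171018882-171018925 with 1 PU.1-type match. Capitals that read TTTC, or ACTTCCTC in Fcgr4, are the motif on the other strand.
Ifit1: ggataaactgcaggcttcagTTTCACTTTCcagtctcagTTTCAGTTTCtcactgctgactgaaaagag
Isg15: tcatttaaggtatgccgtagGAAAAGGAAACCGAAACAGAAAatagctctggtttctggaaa
Cxcl10: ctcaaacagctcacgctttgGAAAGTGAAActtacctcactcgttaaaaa
Rsad2: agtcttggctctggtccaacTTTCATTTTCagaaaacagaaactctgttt
Bst2: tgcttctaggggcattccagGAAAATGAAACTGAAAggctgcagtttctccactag
Gbp3: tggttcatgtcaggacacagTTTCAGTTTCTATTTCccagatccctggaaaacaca
Fcgr4: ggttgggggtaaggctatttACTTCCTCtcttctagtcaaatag

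The 6 interferon genes shown had log2 fold changes of 3.97 ± 0.26 (Ifit1), 3.25 ± 0.22 (Isg15), 6.02 ± 0.43 (Cxcl10), 3.07 ± 0.38 (Rsad2), 2.91 ± 0.29 (Bst2) and 2.83 ± 0.26 (Gbp3). Irf7, Oasl2, Ifi44 and Psmb9 also rose and held no match upstream of the start in this window, nor did a second promoter entry of Gbp3. The PU.1 letters were looked for in the same way in Cst7, Clec7a, Trem2 and Ctss, which held no match. Within 5xFAD Rsad2 and Cxcl10 were both highest in replicate 3, at 11.7, 10.7 and 31.9 CPM and 17.2, 7.31 and 20.1 CPM.

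Genes of cell death pathways rose in part. Of 16 genes of the RIPK1 and RIPK3 pathway 8 rose and 1, the deubiquitinase gene Cyld, fell (log2 fold change -0.37 ± 0.08, adjusted p = 0.00936). The executioner genes Ripk3 and Mlkl were not called: Ripk3 was at 0.697, 0.337 and 0.248 CPM in WT and 0.118, 0.781 and 0.685 CPM in 5xFAD, and Mlkl had 1.17 ± 0.55. Tnfrsf1b, the second TNF receptor gene, rose by 1.06 ± 0.14 and Casp8 by 0.69 ± 0.18. Ripk1 was at 8.2, 7.83 and 6.75 CPM in the WT libraries and at 10.8, 9.69 and 10.1 CPM in the 5xFAD libraries (log2 fold change 0.42 ± 0.13, adjusted p = 0.0454). Ripk1 and Tnf (log2 fold change 1.92 ± 0.62, adjusted p = 0.0498) were called in none of the fits without 1 library, and the list had 5 rises without 5xFAD replicate 1, 4 without 5xFAD replicate 2 or WT replicate 3 and 3 without WT replicate 2. Among 16 inflammasome genes 7 rose, among them Nlrp3 (1.68 ± 0.36), its adaptor Pycard (1.59 ± 0.24), Casp1 (1.06 ± 0.20) and Naip5 (2.20 ± 0.19). Il1b, Il18 and Il1rn were not called (0.63 ± 0.56, 0.31 ± 0.14 and 1.87 ± 0.82). Lymphocyte markers were near the detection limit: 7 of 10 tested rose and 6 had too few counts, but 3 were called without 5xFAD replicate 1 or 2 or any 1 WT library and 4 without 5xFAD replicate 3. Cd8a was at 0, 0.289 and 0.33 CPM in WT and 1.06, 1.46 and 1.09 CPM in 5xFAD, and the summed markers were at 2.71, 3.44 and 3.14 CPM in WT and 13.2, 13 and 7.94 CPM in 5xFAD.

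Astrocytes showed reactive genes higher and single transporters lower. Of 20 reactive genes 12 rose with a median of 1.82, including Vim (1.95 ± 0.18), the oncostatin receptor gene Osmr (1.84 ± 0.15) and Cd44 (1.48 ± 0.25). Of that list Cxcl10, Ctsd and C4b are also made by microglia. Lcn2 and Timp1, which acute injury induces, were not called (2.34 ± 0.91 and 0.16 ± 0.23). Of 18 homeostatic genes 4 rose and 5 fell. Slc6a11, the astrocyte GABA transporter GAT-3, was at 201, 192 and 177 CPM in the WT libraries and at 104, 114 and 122 CPM in the 5xFAD libraries (log2 fold change -0.75 ± 0.09, adjusted p = 0.000113). Slc1a2, the main glutamate transporter gene GLT-1, was at 5865, 4303 and 4761 CPM in the WT libraries and at 3104, 2864 and 3172 CPM in the 5xFAD libraries (log2 fold change -0.71 ± 0.15, adjusted p = 0.00788). The groups did not overlap for either transporter, and both were called in each fit without 1 library. The other glutamate transporter gene, Slc1a3, was not called (0.11 ± 0.09), and the number of falls on this list went to 3 without 5xFAD replicate 1 or 2 or WT replicate 1 or 3.

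Oligodendrocyte genes were mixed, with most myelin genes not called. Of 18 myelin genes 8 rose with a median of 0.31, Trf, the transferrin gene, most (329.5, 364 and 245 CPM in WT and 478, 676 and 631 CPM in 5xFAD, log2 fold change 0.93 ± 0.18, adjusted p = 0.00432). The count was 2 without 5xFAD replicate 2, 3 without 5xFAD replicate 3, 5 without WT replicate 1 and 4 without WT replicate 2 or 3, and the structural gene Mog was not called (0.20 ± 0.13). Of 11 genes reported for disease-associated oligodendrocytes 8 rose, and of these Klk6 was at 1.23, 2.10 and 0.496 CPM in the WT libraries and at 5.54, 12.4 and 13.4 CPM in the 5xFAD libraries (log2 fold change 3.03 ± 0.44, adjusted p = 0.000496). Several of that list, such as C4b, H2-D1 and Apoe, are expressed in other glia as well. Of 11 precursor genes 3 rose, Olig1 (0.29), Bcas1 (0.67) and C1ql1 (0.55), and 1 rose without 5xFAD replicate 2, WT replicate 1 or WT replicate 2. Pdgfra, the growth factor receptor gene that marks precursors, fell (log2 fold change -0.48 ± 0.12, adjusted p = 0.0166) and was called in 2 of the 6 fits without 1 library. Brain endothelial and mural markers gave 2 rises of 18, and one was the adhesion molecule gene Icam1 (log2 fold change 2 ± 0.23, adjusted p = 7.73e-05), while Cldn5, Pecam1 and Flt1 were not called.

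Tgfb1, whose protein microglia need to keep their identity, was at 6.38, 4.33 and 4.3 CPM in the WT libraries and at 13.4, 17.9 and 18.3 CPM in the 5xFAD libraries (log2 fold change 1.73 ± 0.19, adjusted p = 5.03e-05), and its receptor genes Tgfbr2 and Tgfbr1 rose by 1.49 ± 0.11 and 0.66 ± 0.11. Tgfb2, Smad3 and Smad7 were not called. Of 20 genes of TGF-beta, Wnt and Notch signalling 4 rose and 1 fell, with a median of 0.00. Of 23 genes of cholesterol synthesis and uptake 12 rose and none fell, with a median of 0.38. Mvd, an enzyme of the mevalonate pathway, rose by 1.04 ± 0.18 and Nsdhl by 0.78 ± 0.12, both highest in 5xFAD replicate 1.

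**Figure D3:**
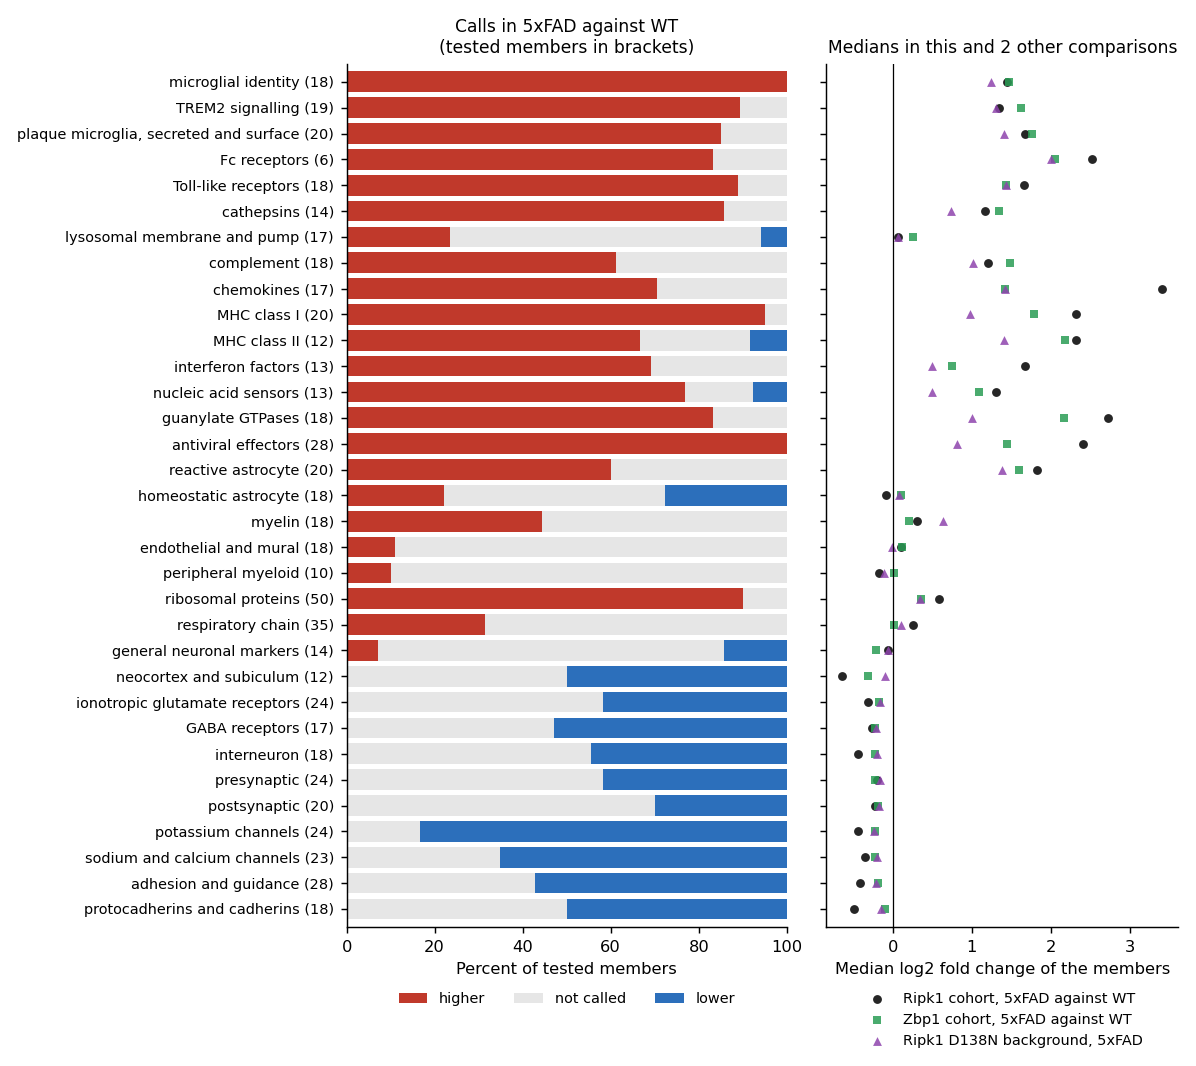
The left panel gives, for 33 gene lists with the number of tested members in brackets, the percent of members that rose (red), fell (blue) or were not called (grey) in 5xFAD against WT. The right panel gives the median log2 fold change of the same members in this comparison (circles), in 5xFAD against WT of the Zbp1 cohort (squares) and in 5xFAD on the Ripk1 D138N background (triangles), and for the antiviral effectors the circle is at 2.40, the square at 1.44 and the triangle at 0.81.

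Neuronal genes fell by small amounts and in many families at once. Beside the counts below, 8.02% of all genes tested fell. The share was 31.3% among genes above 100 CPM, and 44.3% among genes of at least 10 CPM that span over 200 kb. The 6 falls of 20 postsynaptic genes were near the share above 100 CPM. The 10 of 24 ionotropic glutamate receptor genes, 10 of 24 presynaptic genes and 8 of 18 interneuron genes were near the share of the long genes. The 9 of 18 protocadherins and cadherins and 9 of 17 GABA receptor genes lay a little above that share. Whether a family fell beyond genes of like level and length was not tested. Of 24 potassium channel genes 20 fell and none rose, with a median of -0.44. Kcna1, the axonal Kv1.1 channel gene, was at 99.4, 108 and 91.5 CPM in the WT libraries and at 44.9, 51.8 and 61.9 CPM in the 5xFAD libraries (log2 fold change -0.91 ± 0.17, adjusted p = 0.00287). Kcnq3, a subunit of the M current that limits repetitive firing, fell by 0.68 on the log2 scale. Kcna1 was lower in every 5xFAD library than in any WT library, and the least low 5xFAD library was replicate 3. Of 23 sodium, calcium and HCN channel genes 15 fell and none rose. Scn2a, a sodium channel of excitatory axons, was at 459.6, 449.5 and 369.9 CPM in the WT libraries and at 219, 252 and 296 CPM in the 5xFAD libraries (log2 fold change -0.74 ± 0.13, adjusted p = 0.00191). Scn1a, the channel of fast-spiking interneurons, had -0.69 ± 0.14 and the calcium channel subunit Cacnb4 had -0.74 ± 0.16. Cacna1d and Hcn2 were not called.

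Transmitter receptor genes fell in part. Of 24 ionotropic glutamate receptor and auxiliary genes 10 fell, Grin2b, the GluN2B subunit gene, among them (1125, 993 and 949.5 CPM in WT and 603, 597 and 757 CPM in 5xFAD, log2 fold change -0.65 ± 0.13, adjusted p = 0.00462). The obligatory subunit gene Grin1 was not called (-0.20 ± 0.08). Of 10 metabotropic receptor and Homer genes 6 fell, among them Grm3 (log2 fold change -0.83 ± 0.18). Of 17 GABA receptor genes 9 fell. Gabrb2, a beta subunit gene of synaptic receptors, was at 152, 144 and 117 CPM in the WT libraries and at 60.2, 52.6 and 78.0 CPM in the 5xFAD libraries (log2 fold change -1.12 ± 0.20, adjusted p = 0.00287). The extrasynaptic subunit genes Gabra5 and Gabrd were not called (-0.11 ± 0.10 and -0.19 ± 0.17). Of 18 interneuron genes 8 fell: the enzymes Gad1 (-0.65 ± 0.13) and Gad2 (-0.94 ± 0.22), Reln (-1.13 ± 0.29) and the receptor Erbb4 (-0.98 ± 0.25) among them. The class peptides and calcium buffers were not called, Sst being at 94.1, 83.1 and 80.0 CPM in WT and 62.7, 78.1 and 94.8 CPM in 5xFAD and Pvalb having -0.30 ± 0.13. Sst overlapped between the groups.

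At the synapse several scaffold and release genes fell and common vesicle protein genes were not called. Of 24 presynaptic genes 10 fell, among them the active zone scaffolds Bsn (-0.51 ± 0.12) and Pclo (-0.44 ± 0.12), Rims2 (-0.45 ± 0.10) and the priming gene Unc13c, which was at 47.1, 35.3 and 40.6 CPM in the WT libraries and at 14.4, 17.5 and 16.8 CPM in the 5xFAD libraries (log2 fold change -1.33 ± 0.30, adjusted p = 0.00952). Every 5xFAD library was well below every WT library for Unc13c. Syp, Snap25, Vamp2 and Slc17a7 were not called, with log2 fold changes of -0.07 ± 0.08, -0.03 ± 0.08, -0.10 ± 0.07 and 0.14 ± 0.12. Of 20 postsynaptic genes 6 fell, including Shank2 (-0.49 ± 0.08) and Dlgap2 (-0.48 ± 0.10), while Dlg4, the gene of PSD-95, was not called (-0.08 ± 0.09). Adhesion and guidance genes fell in 16 of 28 cases, with log2 fold changes of -0.31 ± 0.09 and -0.44 ± 0.12 for the neurexin genes Nrxn2 and Nrxn3. The guidance cue gene Sema3a was at 6.30, 9.49 and 5.15 CPM in WT and 1.35, 2.70 and 3.36 CPM in 5xFAD. Protocadherins and cadherins fell in 9 of 18 cases. General neuronal markers did not move together: Rbfox3, the gene of NeuN, had -0.10 ± 0.09, Tubb3 -0.11 ± 0.09 and Eno2 -0.09 ± 0.07, none called, whereas the dendritic Map2 fell (log2 fold change -0.54 ± 0.11, adjusted p = 0.00413).

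These neuronal counts moved with single libraries, and no member of the lists of channels, receptors, interneuron or presynaptic genes rose in the full fit. Without 5xFAD replicate 2 the falls numbered 11 for potassium channels, 9 for sodium and calcium channels, 1 for ionotropic glutamate receptors, 3 for metabotropic receptors, 4 for GABA receptors, 3 for interneuron genes, 5 for presynaptic genes and 7 for adhesion and guidance. Without WT replicate 1 the falls were 9 for sodium and calcium channels, 2 for ionotropic glutamate receptors, 3 for metabotropic receptors, 4 for interneuron genes and 6 for adhesion and guidance. Without 5xFAD replicate 1 they were 5 for ionotropic glutamate receptors, 5 for interneuron genes and 10 for adhesion and guidance, and without WT replicate 2 they were 4 for ionotropic glutamate receptors and 5 for interneuron genes.

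Markers of neocortex and subiculum fell in part, and those of other neighbouring regions were mostly not called. Of 12 neocortical and subicular markers 6 fell with a median of -0.64, and summed they were at 799, 771 and 771 CPM in WT and 546, 529 and 610.2 CPM in 5xFAD. The falls on this list numbered 1 without 5xFAD replicate 2 or WT replicate 1 and 3 without WT replicate 3. Slc17a6, the glutamate transporter gene of thalamus and subiculum, fell (22.6, 39.3 and 26.2 CPM in WT and 5.24, 8.13 and 9.53 CPM in 5xFAD, log2 fold change -1.93 ± 0.35, adjusted p = 0.00293) and was the 1 call among 9 thalamic and habenular markers, whose median was 0.02. None of 9 striatal markers was called by edgeR, with a median of -0.25 and 1 higher and 4 lower at an unadjusted p under 0.05, although 1 rose and 3 fell without 5xFAD replicate 3 and 1 rose without 5xFAD replicate 2. Hippocampal subfield markers gave 1 rise and 2 falls of 18, counts that moved with each of the 6 libraries, from 0 to 2 rises and 0 to 3 falls. The dentate factor Prox1 was not called (-0.16 ± 0.12) and the CA1 gene Wfs1 fell (-0.56 ± 0.15). The part of these marker changes in the neuronal falls was not tested. Choroid plexus markers varied between libraries of both groups, Ttr at 586, 2549 and 235 CPM in WT and 1516, 4106 and 22.2 CPM in 5xFAD, and none of 10 was called, nor had any an unadjusted p under 0.05.

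Gene length tracked the direction of change. Among 10394 genes of at least 10 CPM with a known length, introns included, 28.3% of those under 5 kb rose and 2.7% fell, while 1.3% of those over 200 kb rose and 44.3% fell. The median log2 fold change went from 0.24 under 5 kb to -0.31 over 200 kb. For genes over 200 kb the median deviation from the mean of the 6 libraries was 0.192, 0.162 and 0.099 in WT and -0.155, -0.21 and -0.085 in 5xFAD, so the groups did not overlap and WT replicate 3 and 5xFAD replicate 3 lay nearest each other. In the Zbp1 cohort and on the Ripk1 D138N background the medians of genes over 200 kb were -0.12 and -0.14. With the trend on gene length taken out of each library, an alternative chosen after seeing the data, 1628 genes rose and 1046 fell, and the falls numbered 10 for potassium channels, 6 for sodium and calcium channels, 4 for GABA receptors, 2 for adhesion and guidance and 1 for ionotropic glutamate receptors. Since the gradient separated the groups, it and genotype cannot be told apart.

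**Figure D4:**
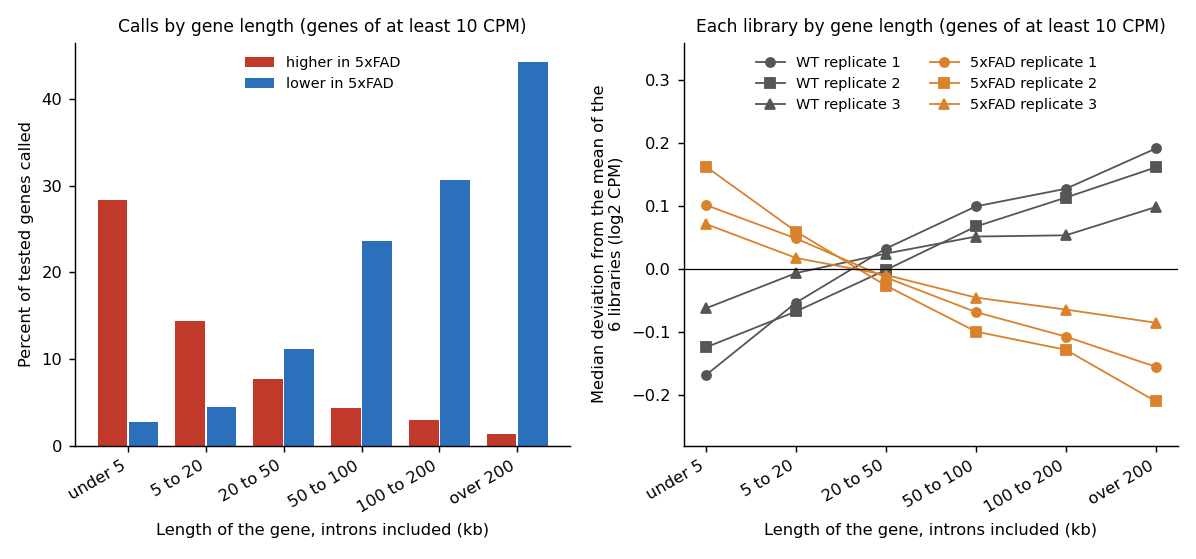
The left panel gives the percent of genes of at least 10 CPM that rose (red) or fell (blue) in 5xFAD, by length of the gene in kb with introns. The right panel gives for each library the median deviation of log2 CPM from the mean of the 6 libraries in the same length classes, grey for WT and orange for 5xFAD, and the 2 groups lie apart under 5 kb and over 200 kb and meet at 20 to 50 kb.

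At the short end of that range stood the ribosomal protein genes. Of 50 tested 45 rose and none fell, with a median of 0.58, and summed they were at 5073, 5398 and 5859 CPM in WT and 7086, 8640.5 and 7757 CPM in 5xFAD. Rpl41 was at 65.1, 84.5 and 87.8 CPM in the WT libraries and at 139, 156 and 128 CPM in the 5xFAD libraries (log2 fold change 0.83 ± 0.14, adjusted p = 0.00148). The 5xFAD libraries all exceeded the WT libraries for Rpl41 and for the sum. The rises numbered 27 without 5xFAD replicate 2, 29 without WT replicate 1 and 35 with the length trend taken out. In the Zbp1 cohort 0 of these 50 genes rose (median 0.35), and on the Ripk1 D138N background 2 rose (median 0.34). Nuclear-encoded respiratory chain genes gave 11 rises of 35 with a median of 0.26, and 2 rises without 5xFAD replicate 2, 3 without WT replicate 1 and 6 without WT replicate 2. Beside these, 8.11% of all genes tested rose, and 28.3% of genes of at least 10 CPM under 5 kb. With the length trend taken out 6 of the 35 rose and 1 fell, with a median of 0.14. For the respiratory chain genes the Zbp1 cohort and the D138N background each gave 0 rises, with medians of 0.01 and 0.10. Among nuclear long noncoding RNAs Neat1, the scaffold of paraspeckles, rose (181, 211 and 164 CPM and 299.6, 469.8 and 417 CPM, log2 fold change 1.09 ± 0.18, adjusted p = 0.00142), Peg13 fell (log2 fold change -0.60 ± 0.10, adjusted p = 0.00175) and Malat1 was not called (0.16 ± 0.09).

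Hlf, a clock-controlled factor, was at 235, 211 and 227 CPM in the WT libraries and at 105, 128 and 150.2 CPM in the 5xFAD libraries (log2 fold change -0.81 ± 0.17, adjusted p = 0.00567), and of 16 clock genes 6 fell and 1, Bhlhe41, rose (0.60 ± 0.11). Beside these 6 falls of 16, 8.02% of all genes tested fell, and 31.3% of those above 100 CPM. The falls among clock genes numbered 4 to 7 without 1 library and 4 with the length trend taken out. Per1, Dbp and Nr1d1, which have strong daily rhythms, were not called (0.02 ± 0.18, 0.06 ± 0.15 and -0.04 ± 0.11). Immediate early genes were far higher in 5xFAD replicate 1 than in the other libraries. Npas4, which neuronal firing induces, was at 30.7, 12.9 and 22.1 CPM in the WT libraries and at 677, 15.9 and 8.75 CPM in the 5xFAD libraries and was not called (log2 fold change 3.41 ± 1.14, adjusted p = 0.0589). Summed over the list, immediate early genes were at 5947 CPM in that library and between 689 and 978 CPM in the other 5. In the full fit 8 of 21 rose. There were 1 rise and 1 fall without 5xFAD replicate 1 or WT replicate 2, 1 rise without WT replicate 1, 2 without WT replicate 3 and 14 without 5xFAD replicate 3.

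The same comparison exists in the Zbp1 cohort, with 3 WT and 3 5xFAD libraries of its own, and on the Ripk1 D138N background, where 3 D138N libraries serve as controls for 3 D138N;5xFAD libraries. D138N removes the kinase activity of RIPK1. In the Zbp1 cohort 638 genes rose (3.0%) and 27 fell (0.127%), and on the D138N background 666 rose (3.12%) and 55 fell (0.257%). Of the genes that rose here and were tested there, 537 of 1714 (31.3%) rose in the Zbp1 cohort, which is 84.4% of the 636 rises of that cohort tested in both, and 92.1% were higher there, beside 49.2% of all genes. Of the genes that fell here 12 of 1712 (0.7%) fell there, 44.4% of the 27, and 82.5% were lower there, beside 50.8% of all genes. On the D138N background 574 of 1734 rises (33.1%, and 86.2% of the 666) and 43 of 1715 falls (2.5%, and 78.2% of the 55) were called. None was called in the opposite direction in either.

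The lists can be set side by side over the 3 comparisons, which share no library. The median for microglial identity was 1.45 here, 1.47 in the Zbp1 cohort and 1.24 on the D138N background. Trem2 had 3.26 ± 0.17, 3.23 ± 0.24 and 3.04 ± 0.17 in that order. The median for antiviral effectors was 2.40, 1.44 and 0.81, with 28, 17 and 12 rises, and that for guanylate GTPases 2.72, 2.17 and 1. Potassium channels had medians of -0.44, -0.23 and -0.24, with no call in the other 2 comparisons. Not every list was weaker on the D138N background: myelin genes had medians of 0.31, 0.21 and 0.63, with 8, 1 and 14 rises of 18.

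A test of the difference itself found no gene between the cohorts and 6 between the Ripk1 backgrounds. Between cohorts edgeR called 0 of 22565 genes (0.0%), with 2063 at an unadjusted p under 0.05 and a smallest adjusted p of 0.237, and DESeq2 called 31. Between backgrounds 6 of 21376 genes (0.0281%) were called, with 1596 at an unadjusted p under 0.05. Among them were the interferon-induced genes Isg15, Irgm1, Irf7, Ifit1 and Oasl2, each with the larger rise in the mice without the D138N allele. Isg15, a ubiquitin-like protein, rose by 3.25 ± 0.22 here and had 0.52 ± 0.22 on the D138N background (difference 2.73 ± 0.31, adjusted p = 0.012). Leaving out 1 library gave 2 genes without 5xFAD replicate 1, 11 without 5xFAD replicate 2, 1 without WT replicate 2 and 0 without 5xFAD replicate 3, WT replicate 1 or WT replicate 3. With the replicate block, and with counts thinned to the depth of the shallowest library, no gene was called.

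The authors' deposited table for the same comparison lists 18007 genes, of which 1924 have a higher and 2049 a lower level at an adjusted p under 0.05, and it marks 711 as Up and 94 as Down. Of the genes that rose at least 2-fold here and are in the authors' deposited table, 643 of 661 are marked Up, and of those that fell at least 2-fold 63 of 68 are marked Down.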

How the data were processed

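Hippocampal polyA RNA libraries were sequenced, and the authors deposited a table of raw read counts per gene, together with a table of their own comparison holding log2 fold changes and p-values, per the file headers. Per the submitters' processing notes the tools were HISAT2, DESeq2 1.42.1 and edgeR 4.0.16, with builds mm10, GRCm38, mm39 and GRCm39, whose roles are not stated. For the counter, its strand setting and its treatment of shared reads, the sources used here give nothing.

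Of 55487 genes listed, 20254 had no count in the 6 libraries and 21376 passed edgeR's filterByExpr over the 12 libraries of the cohort. Counts were scaled by TMM and fitted with edgeR 4.0.16 (R 4.3.3) quasi-likelihood over 12 libraries and 4 groups, with Benjamini-Hochberg adjustment at 0.05. The Zbp1 cohort was fitted likewise, and the difference between cohorts in 1 fit. Promoters and gene lengths came from RefSeq tables of GRCm38.p6, matched by symbol. Alternatives used DESeq2 1.42.0, limma 3.58.1 voom, other scalings and filters, a replicate block and leaving out each library. On simulated counts for this comparison 200 of 21376 genes were changed, all of them with a mean of at least 1 CPM. There 41.8% of 1.5-fold, 71.6% of 2-fold and 83.3% of 4-fold changes were recovered, and 5.8% of the calls were false. The data gave 3449 calls, far more than the simulation, so these rates need not hold for the data or for genes under 1 CPM.

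Genes were named by rule: the 12 largest rises and 12 largest falls of at least 1 CPM that did not overlap and were called in all 6 fits without 1 library, the 10 most abundant in each direction, the first 3 members and, in each direction, the 2 largest called changes of each list, and the 10 largest cases where 1 library stood at least 5 times above or below all others. Some genes that this rule names are not reported here. Other genes named were chosen after their values were seen. The lists and the comparison were chosen with earlier results of these data known.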

Additional observations from a re-analysis of the deposited data

Results flagged for a closer look

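Genes whose 5xFAD effect differed between the Ripk1 backgrounds, by edgeR's test of the difference with Benjamini-Hochberg adjustment over 21376 genes, numbered 6, and 5 of them are given here. The difference is the log2 fold change without the D138N allele minus that on the D138N background. It was 2.73 ± 0.31 for Isg15 (adjusted p = 0.012), 1.51 ± 0.19 for Irgm1 (0.0261), 2.59 ± 0.36 for Irf7 (0.0404), 2.51 ± 0.36 for Ifit1 (0.0404) and 2.72 ± 0.40 for Oasl2 (0.0404). On the D138N background Irgm1 (0.91 ± 0.14), Irf7 (1.33 ± 0.26), Ifit1 (1.47 ± 0.26) and Oasl2 (1.44 ± 0.28) rose as well, while Isg15 (0.52 ± 0.22) was not called. In the 6 fits that left out 1 WT or 5xFAD library the difference ran from 2.57 to 2.88 for Isg15, with adjusted p from 0.00516 to 0.0648. Isg15 was called in 3 of these fits and each of the other 4 in 1. With the replicate block none of the 5 was called (adjusted p from 0.0642 to 0.0991), and with counts thinned to the depth of the shallowest library no gene was.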

How the results depend on the processing

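The 23 lists with most of their members called higher numbered 18 to 25 in every alternative run, and the rises of at least 2-fold stayed within 1.5 times of 709 in each. Falls were less firm. Against a 1.2-fold null the calls numbered 1115 in all, 831 rises and 284 falls, with 52 falls of at least 2-fold. Leaving out 1 library gave 1757 to 3293 calls in all, 1055 to 1663 rises, 702 to 1630 falls and 50 to 178 falls of at least 2-fold. With the trend on gene length taken out, an alternative chosen after seeing the data like the thinning to the depth of the shallowest library, 1046 genes fell. The lists with most of their members called lower numbered 5, and 2 with library size alone, 9 with no filter on low counts, 8 with DESeq2, 0 against the 1.2-fold null, 3 with counts thinned, 0 with the length trend taken out and 0 to 5 without 1 library. The difference between cohorts gave 188 genes with no filter and 31 with DESeq2. The difference between Ripk1 backgrounds gave 145 with no filter, 74 with DESeq2, 0 with counts thinned, 2 with the length trend taken out and 0 to 11 without 1 library. Among the genes named, Fosb ran from -0.58 (adjusted p = 0.119, without 5xFAD replicate 1) to 4.98 (without 5xFAD replicate 3), and with the length trend taken out Cacna1d turned to 0.22 (adjusted p = 0.0367). For these changes the cause was not tested beyond the fewer samples or genes that each alternative holds. Of 169 named genes called, 28 lost the call in at least 1 of the 6 fits without 1 library. Some of these genes were named because they were called in all 6 of these fits, so this count does not measure how firm calls are. Over all calls, 895 of 1734 rises and 589 of 1715 falls were called in all 6. Of the same 169 genes, 136 kept the call in all of the other alternatives.

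Same-numbered WT and 5xFAD libraries had deviations from their group means that correlated at 0.013, 0.138 and 0.057. For libraries of different number the correlations ran from -0.1 to 0.054, so the values for replicates 2 and 3 were the highest. The labels state no replicate block, and the main fit did not take the numbers as pairs. With the replicate block 1745 genes rose and 1852 fell, and the difference between backgrounds gave 0 genes. Of genes under 1 CPM 2.2% rose and 0.7% fell. The part of depth in this was not tested by level, and with counts thinned 1771 genes rose and 1526 fell.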

Other observations

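Among the largest rises were receptors that the lists do not hold. Olfr111, an olfactory receptor gene, was at 0, 0 and 0.165 CPM in WT and 1.94, 2.27 and 3.21 CPM in 5xFAD, Cd200r4, a member of the CD200 receptor family, at 0, 0 and 0.11 CPM and 1, 2.66 and 1.99 CPM, and Hcar2, the receptor for niacin and ketone bodies, at 0, 0.241 and 0.0826 CPM and 4.06, 4.47 and 5.67 CPM. Mmp12, the macrophage elastase gene, was at 0, 0 and 0.0551 CPM and 0.589, 0.675 and 0.311 CPM and was the sole rise among 24 matrix genes. Among the larger falls were the amyloid-degrading protease gene Mme (8.12, 9.2 and 8.01 CPM and 1.53, 2.45 and 3.15 CPM), Shc3, a neuronal signalling adaptor gene (52.4, 45.3 and 40.6 CPM and 13.7, 17.1 and 20.7 CPM), the heparan sulfate enzyme gene Hs6st3 (-1.39 ± 0.23), the muscarinic receptor gene Chrm2 (-1.37 ± 0.27) and Ppara (-1.37 ± 0.27). In the Zbp1 cohort Shc3 had -0.10 ± 0.20 and Ppara 0.46 ± 0.29. The sorting receptor gene Sorl1 fell (464, 464 and 424 CPM and 299.7, 296 and 351 CPM, -0.51 ± 0.11), as did Bace1 (-0.36 ± 0.08), while Clu rose (0.83 ± 0.11).

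Immune genes did not order the 3 5xFAD libraries in 1 way. Replicate 3 was highest for Mx1, Mx2 (9.66, 7.10 and 15.4 CPM), Rsad2 and Usp18 (13.6, 7.92 and 17.4 CPM) and lowest for B2m (403, 393 and 249.5 CPM), Cxcl9 (4.18, 2.13 and 1.31 CPM), Ccl5 (3.18, 2.20 and 0.529 CPM) and Cd3g (1.53, 0.746 and 0.436 CPM). Replicate 2 was highest for Cd74 and H2-Aa (24.8, 78.0 and 21.9 CPM) and lowest for Ifit1 (44.9, 22.7 and 40.6 CPM), Ifit3 (93.6, 44.5 and 97.1 CPM) and Zbp1 (6.83, 3.76 and 7.41 CPM). With 1 library for each pattern these are values and no test was made. Fosb was at 557, 6.60 and 5.29 CPM and Fos at 521, 17.5 and 7.66 CPM in the 5xFAD libraries, and Gm2260 at 0.509, 0.361 and 10.7 CPM in the WT libraries.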
